A study of Mus musculus with 17 samples.

Results

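Mouse primary neurons that received a reconstituted ApoE particle were compared directly with neurons that received an ApoE particle, across all genes. The comparison rests on 4 of the 17 libraries of the study, 2 per particle, and 2 libraries of control-treated neurons come in the same count table. All 6 libraries are labelled as primary neurons from brain of the C57BL/6 strain, and no transgene, knockout or other agent is named for any of them. The labels give no age, particle dose, treatment time or particle composition, and they do not say what the control neurons received. Nor do they state that libraries within a group are independent cultures, so a p-value measures the spread between these samples only, which may be technical. The table lists 30984 genes. Of these, 1489 had no value in the control and ApoE particle columns and were dropped, 29495 were kept, and 16388 passed the filter on low counts and were tested.

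ApoE is the main apolipoprotein of the brain. Astrocytes release it in lipid-carrying particles, which neurons take up through lipoprotein receptors. Cholesterol delivered this way is sensed in the endoplasmic reticulum, where SREBP2, the transcription factor that switches on the cholesterol synthesis enzymes, is held back when sterol is plentiful. A reconstituted particle is one assembled from its components; the labels do not describe how either particle was made.

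Libraries held 16.45 to 17.78 M counts, and the TMM factors, which correct library size for composition, lay between 0.99 and 1.011. Levels below are CPM, counts relative to the library sizes so corrected. A gene was called when the adjusted p of edgeR's quasi-likelihood test (Benjamini-Hochberg) was under 0.05. The reconstituted libraries did not stand apart from the controls. The chi-square per degree of freedom between a control and a reconstituted library was 3.09 to 4.41, against 4.23 between the 2 controls and 3.97 between the 2 reconstituted libraries. Between a reconstituted and an ApoE particle library it was 17.5 to 30.9, and between the 2 ApoE particle libraries 10.6. The test estimated the spread of each gene jointly over the groups, so the wider ApoE particle pair was pooled with the closer pairs. The p-values below rest on that shared spread. The 1489 genes without control and ApoE particle values all had values in the reconstituted columns, and the sources used here do not say whether those columns were counted in a separate run. No transcript checks which particle a library received, so every value below rests on the labels as given.

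Against control, edgeR called 0 of 16388 genes for the reconstituted particle, with 776 genes (4.74%) at an unadjusted p under 0.05 and a smallest adjusted p of 0.0775. DESeq2 and limma voom also called 0 genes. The ApoE particle gave 3617 calls against the same controls (22.1%). These comparisons share the control libraries, and the direct comparison shares the ApoE particle libraries with the last, so values are set side by side below and no agreement between them is counted. An absence of calls with 2 libraries per group does not show that the reconstituted particle had no effect. Whether the reconstituted particle reached the neurons was not measured here.

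In the direct comparison 3319 genes were called (20.3% of those tested). Of these, 1864 were higher with the reconstituted particle (11.4%) and 1455 were lower (8.88%). Most differences were small, with a median absolute log2 fold change of 0.39 among called genes. At 2-fold or more, 479 genes were called (2.92%), of which 331 were higher (2.02%) and 148 were lower (0.903%), and at 16-fold or more the counts were 48 and 3. The libraries of the particles did not overlap in any of the 3319 called genes, beside 9659 of all tested genes (58.9%). The number of lower genes fell to 949 without reconstituted library 2 and to 930 without ApoE particle library 1. Of the 15 largest rises with the reconstituted particle, 14 were members of the interferon lists, and of the 15 largest falls 7 were members of the integrated stress response list. All log2 fold changes below are reconstituted minus ApoE particle, ± 1 SE, unless stated otherwise. This SE is the absolute log2 fold change divided by the square root of the test's F statistic. It was not estimated from the counts of each group, so it does not give the uncertainty of folds that rest on few counts. Ifit1, for example, had 6 counts over the ApoE particle libraries and an SE of 0.21. Counts of called list members below are to be read beside the shares of all tested genes, 11.4% higher and 8.88% lower.

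**Figure D1:**
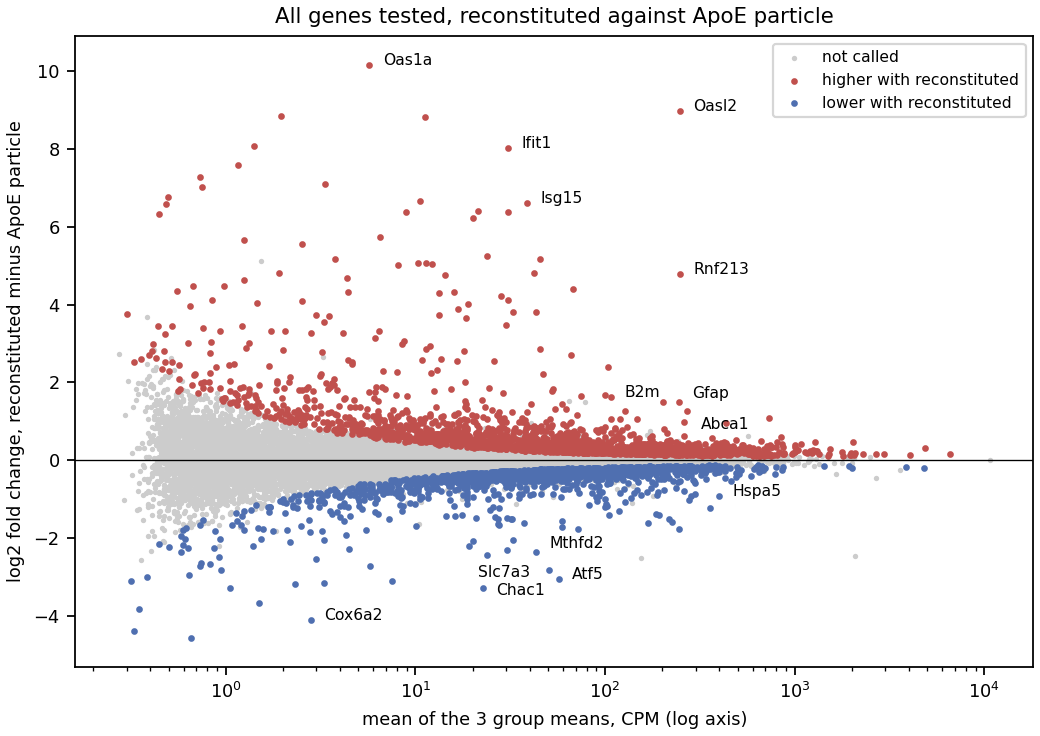
Each dot is 1 of the 16388 tested genes, with the mean of the 3 group means in CPM on a log axis and the log2 fold change, reconstituted minus ApoE particle, on the vertical axis. Red and blue mark the 1864 genes called higher and the 1455 called lower with the reconstituted particle; the height of Oas1a, at 0 counts in both ApoE particle libraries, is a fitted value and no measured fold.

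The neuron label was checked first against defining markers. Map2, a dendritic microtubule protein, was at 2242 and 2148 CPM with the reconstituted particle and 1894 and 1954 with the ApoE particle. Microglial markers were nearly absent: 9 of 11 listed in the table were under 1 CPM in all 6 libraries, among them Cx3cr1, a microglial chemokine receptor, which was too low to test. The 15 astrocyte markers summed to 3168 and 3401 CPM with the reconstituted particle, 2369 and 2611 with the ApoE particle and 3357 and 3158 in the controls, so the cultures held astrocyte RNA and it was lowest with the ApoE particle. Gfap, the astrocytic filament protein, was at 304.5 and 302.5 CPM with the reconstituted particle and 99.2 and 118 with the ApoE particle (log2 1.49 ± 0.06, adjusted p = 2.86e-12). In these bulk samples, fewer cells of a type and less RNA per cell cannot be told apart.

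Sums for other non-neuronal cells went in both directions. Vessel and fibroblast markers summed to 150.1 and 172 CPM with the reconstituted particle, 58.8 and 96.3 with the ApoE particle and 219 and 147 in the controls. Proliferating-cell markers summed to 359.8 and 408, 305 and 326, and 411 and 343. Of these 15 markers 7 were higher (46.7%) and 1 lower, with a median log2 of 0.57. The 7 choroid plexus markers summed to 26.6 and 31.7, 44.2 and 56.8, and 68.2 and 39.4, and none of the 6 tested was called. Among the astrocyte markers 9 of 15 were higher and 0 lower, with a median log2 of 0.27; among vessel and fibroblast markers 6 of 11 were higher, a count of 2 without reconstituted library 2, and of 3 without reconstituted library 1 or ApoE particle library 1. The part of these cells in the differences that follow was not tested.

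The interferon response is the antiviral program that type I interferon starts: its receptor activates the kinases Jak1 and Tyk2, and a complex that includes Stat2 and Irf9 then binds a promoter element, the ISRE. To show that element in signalling, effector, GTPase and antigen presentation genes called higher, 6 promoter stretches are printed from RefSeq (GRCm38.p6), on the strand of the gene; capitals mark the ISRE letters (GAAA, then 2 bases of any kind, then GAAA) or their reverse complement.
Ifit1, plus strand, chr19:34640789-34640828: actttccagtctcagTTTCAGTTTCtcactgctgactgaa
Ifit3, plus strand, chr19:34583392-34583431: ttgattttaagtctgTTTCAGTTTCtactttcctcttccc
Stat2, plus strand, chr10:128270261-128270300: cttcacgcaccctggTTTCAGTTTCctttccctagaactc
Irgm1, minus strand, chr11:48871421-48871459: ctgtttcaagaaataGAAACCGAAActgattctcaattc
Gbp3, plus strand, chr3:142559990-142560029: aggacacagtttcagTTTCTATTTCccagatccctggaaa
B2m, plus strand, chr2:122147533-122147572: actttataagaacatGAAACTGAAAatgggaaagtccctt

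On both strands, from 250 bases before to 50 bases after the start, the ISRE letters were found in 3.99% of all 27025 genes with a promoter window and in 3.62% of the 11473 tested genes with one. They were in 58 of 225 genes called higher by 2-fold or more (25.8%), and in 6 of 100 called lower by as much. By role, they were in 2 of 12 signalling genes, and in 1 of the 5 of these that were called, Stat2. They were in 12 of 26 antiviral effectors, 4 of 7 RNA and DNA sensors and 9 of 10 GBP and IRG GTPases. Of 16 genes of MHC class I presentation, 5 had a match. Oasl2 and Irf7, both with large differences, had no match in this window. A match is a run of letters and was not tested for binding.

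Of 14 signalling genes of the interferon pathway, 7 were higher with the reconstituted particle and 0 lower, with a median log2 of 0.50. Stat2 was at 136 and 130.4 CPM with the reconstituted particle, 26.6 and 24.3 with the ApoE particle and 153 and 148 in the controls (log2 2.39 ± 0.07, adjusted p = 4.98e-18). Its libraries with the ApoE particle lay far below the other 4. Irf9 was at 87.0 and 88.7 CPM against 14.4 and 12.4 (log2 2.71 ± 0.08). The same held for Irf7, the transcription factor that amplifies interferon production, at 34.9 and 29.6 CPM against 0.355 and 0.390 (log2 6.41 ± 0.21). Usp18, a protease that removes Isg15 and dampens receptor signalling, was at 44.0 and 47.9 CPM against 0.296 and 0.780 (log2 6.38 ± 0.19).

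The receptor and its kinases differed less or not detectably. Ifnar1, an interferon receptor chain, was at 90.4 and 94.2 CPM with the reconstituted particle and 95.7 and 96.5 with the ApoE particle (log2 -0.06 ± 0.07, adjusted p = 0.586). Tyk2 was at 20.04 and 17.1 CPM against 17.7 and 19.1 (log2 0.01 ± 0.12, adjusted p = 0.952). Jak1 was called, at 253.5 and 253.8 CPM against 199 and 213 (log2 0.30 ± 0.05). These 3 genes were chosen for the text after their values were seen.

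Of 56 interferon-stimulated genes tested, 53 were higher with the reconstituted particle and 0 lower, beside 11.4% of all genes tested. The median log2 was 3.80 with genes at 0 counts set to their bound, beside -0.0015 over all genes. Oasl2, an antiviral protein of the oligoadenylate synthetase family (chr5:114896936-114912234), was at 370.4 and 356.8 CPM with the reconstituted particle, 0.650 and 0.780 with the ApoE particle and 375 and 379 in the controls. The difference was 8.97 ± 0.09 on the log2 scale (adjusted p = 1.36e-27). In raw counts this was 11994 over the reconstituted libraries and 25 over the ApoE particle libraries, for Oasl2.

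Ifit1, which binds viral RNA lacking cap methylation (chr19:34640871-34650009), was at 47.0 and 45.9 CPM against 0.118 and 0.223 (log2 8.02 ± 0.21). Isg15, a ubiquitin-like modifier, was at 55.2 and 57.3 CPM against 1.01 and 0.167 (log2 6.60 ± 0.23). Oas1a had 275 counts over the reconstituted libraries and 0 over the ApoE particle libraries, which with a floor of 3 counts over the group made it at least 96.9-fold higher. In each of these genes both ApoE particle libraries lay below both reconstituted libraries. Bst2, the tether that holds budding virus, was at 61.8 and 71.7 CPM against 1.36 and 2.28 (log2 5.18 ± 0.16). Rtp4, Ifi44, Oas1b, Mx2 and Ifit3 differed by log2 values of 6.23, 6.67, 6.38, 5.72 and 5.24. Over the ApoE particle libraries they had 13, 5, 5, 6 and 32 counts, so the size of these folds is uncertain. For Oas1b it ranged from 5.77 to 7.56 over the alternative settings. The Oas1 genes belong to a gene family and Ifit3 and Ifit3b are near-identical copies, so how reads were divided among them is uncertain.

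By role, 33 of 34 antiviral effectors, 7 of 9 RNA and DNA sensors and 13 of 13 GBP and IRG GTPases were higher. Among sensors, Ddx58, which encodes the RNA sensor RIG-I, was at 46.5 and 40.6 CPM against 3.84 and 4.01 (log2 3.47 ± 0.13). Ifih1, which encodes the RNA sensor MDA5, was at 25.3 and 21.2 CPM against 1.30 and 1.00 (log2 4.33 ± 0.19). Eif2ak2, the RNA-activated kinase PKR, was at 60.5 and 61.2 CPM against 8.52 and 8.30 (log2 2.85 ± 0.10). Among the GTPases, which act against intracellular pathogens, Irgm1 was at 49.4 and 45.7 CPM against 3.19 and 3.56 (log2 3.81 ± 0.12), and Gbp3 at 42.8 and 38.3 against 1.83 and 2.51 (log2 4.21 ± 0.15). The GBP genes are close copies of each other and their single values carry the same uncertainty. Isg20, Aim2 and Adar were the 3 tested members not called, and they are named for that reason after their values were seen. Adar, which edits double-stranded RNA, was at 183.7 and 184.5 CPM against 179.6 and 183.0 (log2 0.02 ± 0.05, adjusted p = 0.814).

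**Figure D2:**
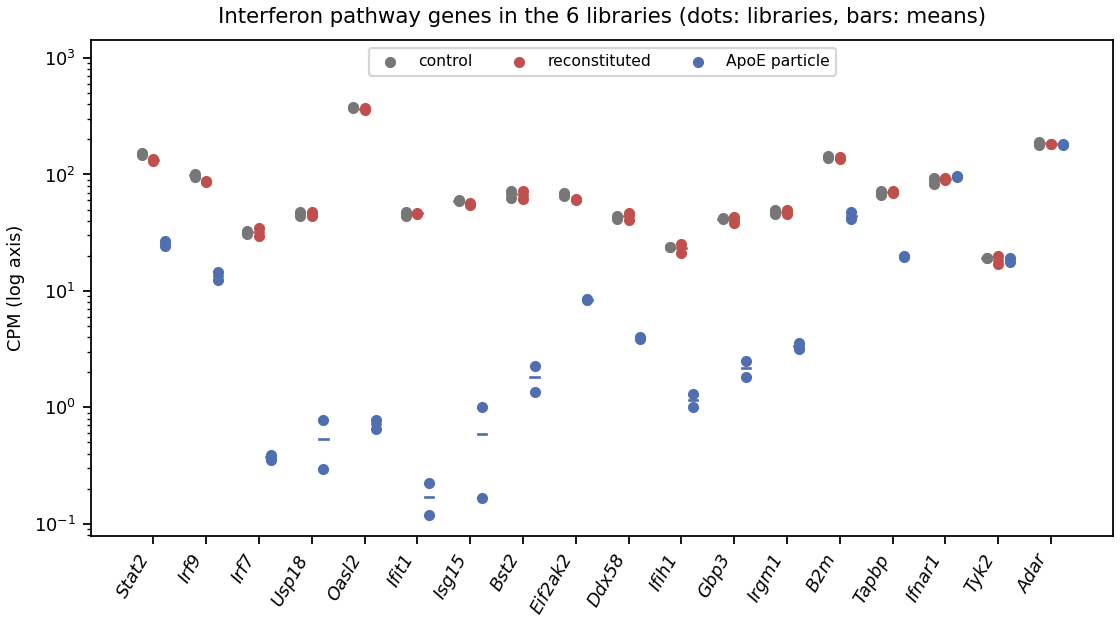
CPM on a log axis for genes of the interferon pathway in the 6 libraries, with a dot per library and a bar at each group mean. Control and reconstituted libraries sit together for every gene shown, ApoE particle libraries lie below them from Stat2 to Tapbp, and the groups overlap or nearly touch for Ifnar1, Tyk2 and Adar.

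The genes of MHC class I presentation, which carries peptides to the cell surface, followed the same direction. Of 19, 18 were higher and 0 lower, with a median log2 of 1.78. B2m, the invariant light chain of the complex (chr2:122147686-122153083), was at 140.7 and 135 CPM with the reconstituted particle, 41.5 and 47.2 with the ApoE particle and 144 and 139 in the controls (log2 1.64 ± 0.07, adjusted p = 5.01e-15). Tapbp, the loading chaperone, was at 69.2 and 71.5 CPM against 19.6 and 19.99 (log2 1.83 ± 0.08). H2-K1, a heavy chain, was at 63.4 and 67.2 CPM against 17.1 and 20.6 (log2 1.79 ± 0.10), and H2 genes share sequence, so reads between them may be split unevenly.

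Among 22 genes of inflammation and the acute phase, 13 were higher and 1 lower. The lower gene, Cx3cl1 (log2 -0.20), lost its call without either reconstituted library or ApoE particle library 1. Of the 10 targets of Stat3, the transcription factor of the interleukin 6 family receptors, 9 were higher and 0 lower, with a median log2 of 1.33. Stat3 itself was at 153 and 159.5 CPM with the reconstituted particle and 62.7 and 66.7 with the ApoE particle (log2 1.27 ± 0.06, adjusted p = 6.06e-14). Socs3, a feedback inhibitor of that pathway, was at 17.2 and 15.8 CPM against 4.67 and 4.96 (log2 1.78 ± 0.16). Osmr, the oncostatin M receptor, differed by 1.37 ± 0.15 and Lifr, the leukaemia inhibitory factor receptor, by 0.93 ± 0.09. Vcam1, an adhesion molecule, was at 73.8 and 79.1 CPM against 26.9 and 34.4 (log2 1.32 ± 0.09). Among 8 complement genes tested, 3 were higher, with C4b at 31.7 and 32.0 CPM against 7.75 and 9.69 (log2 1.87 ± 0.16).

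Genes of the integrated stress response differed in the other direction. In this response, kinases that sense amino acid shortage, misfolded protein or double-stranded RNA phosphorylate the initiation factor eIF2α, and the transcription factor Atf4 then raises genes for amino acid uptake and synthesis. Atf4 and its partners bind an element called CARE. To show it beside genes that differed, 3 promoter stretches from RefSeq (GRCm38.p6) are printed on the strand of the gene, with the CARE letters TTGCATCA or their reverse complement in capitals.
Chac1, plus strand, chr2:119351034-119351071: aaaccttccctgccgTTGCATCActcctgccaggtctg
Pycr1, minus strand, chr11:120643829-120643866: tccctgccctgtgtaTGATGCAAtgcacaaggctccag
Vldlr, plus strand, chr19:27216805-27216842: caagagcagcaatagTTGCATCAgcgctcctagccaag
On both strands the letters were found in 0.71% of tested genes with a window and in 2.13% of genes called lower. By role they were in 5 of 18 regulators, 2 of them among the 14 called, in 1 of 11 amino acid synthesis genes, 2 of 6 amino acid transporters and 4 of 11 aminoacyl-tRNA synthetases.

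Of 40 integrated stress response genes tested, 31 were lower with the reconstituted particle and 1 higher, beside 8.88% lower over all genes, and the median log2 was -1.39. Among regulators 13 of 17 were lower, and the 1 called higher, Eif2ak1 (log2 0.21), lost its call without either control, either reconstituted library or ApoE particle library 1. The list leaves out Eif2ak2, the kinase of this response that senses double-stranded RNA. It was counted with the interferon genes above and was higher with the reconstituted particle (log2 2.85 ± 0.10). Atf5, a transcription factor made when eIF2α is phosphorylated (chr7:44812256-44816658), was at 15.5 and 17.4 CPM with the reconstituted particle, 137 and 133 with the ApoE particle and 19.6 and 17.96 in the controls (log2 -3.04 ± 0.08, adjusted p = 1.55e-18). Both ApoE particle libraries were high and the other 4 lay close together. Ddit3, which encodes the stress factor CHOP, was at 10.3 and 9.09 CPM against 55.5 and 48.0 (log2 -2.42 ± 0.12). Chac1, a glutathione-degrading enzyme (chr2:119351229-119354381), was at 6.64 and 4.72 CPM against 62.7 and 47.3 (log2 -3.28 ± 0.17). Trib3, a pseudokinase that restrains Atf4, was at 2.89 and 1.38 CPM against 20.9 and 15.8 (log2 -3.10 ± 0.41, adjusted p = 0.00256). Sesn2, a leucine sensor, was at 41.6 and 37.1 CPM against 136 and 129 (log2 -1.75 ± 0.07). Atf4 itself, added after its values were seen, was at 136 and 110.5 CPM against 335 and 313 (log2 -1.40 ± 0.12, adjusted p = 0.000738).

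Amino acid synthesis and uptake genes made up the rest of the list. Of 13 genes for serine, one-carbon, proline and asparagine synthesis, 11 were lower and 0 higher. Mthfd2, a mitochondrial folate enzyme, was at 18.1 and 18.2 CPM against 98.6 and 87.9 (log2 -2.36 ± 0.09). The serine pathway enzymes Phgdh, Psat1 and Shmt2 differed by log2 values of -1.40, -1.38 and -1.57, and Pycr1, the last enzyme of proline synthesis, by -2.19. Of 10 amino acid transporters 7 were lower. Slc7a3, a cationic amino acid transporter (chrX:101079210-101086020), was at 17.95 and 15.1 CPM against 128 and 105 (log2 -2.82 ± 0.11), and Slc3a2, the shared heavy chain of several transporters, at 137 and 128 against 401 and 354 (log2 -1.51 ± 0.06).

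Of 19 cytosolic aminoacyl-tRNA synthetases, which charge tRNAs with amino acids, 14 were lower and 1 higher, with a median log2 of -0.80. Aars, for alanine, was at 258 and 235 CPM against 595 and 551 (log2 -1.22 ± 0.05), and Lars, for leucine, at 97.8 and 87.5 against 198 and 188 (log2 -1.06 ± 0.06). Not all members followed. Qars, for glutamine, was the 1 called higher (log2 0.23), a call lost without reconstituted library 2 or either ApoE particle library. Kars, for lysine, was at 143 and 150.1 CPM against 149 and 150.0 (log2 -0.03 ± 0.05), and Wars, for tryptophan, at 126 and 129 against 138 and 121 (log2 -0.02 ± 0.06); both were chosen after their values were seen.

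The endoplasmic reticulum chaperones and factors of the unfolded protein response were lower in 20 of 24 cases and higher in 0, with a median log2 of -0.54. Hspa5, the main chaperone of that compartment (chr2:34771970-34777547), was at 313 and 298 CPM with the reconstituted particle, 566 and 579 with the ApoE particle and 321 and 318 in the controls (log2 -0.91 ± 0.04, adjusted p = 6.21e-14). Herpud1, part of the degradation machinery for misfolded protein, was at 33.7 and 32.8 CPM against 112 and 106 (log2 -1.71 ± 0.07). Hyou1 and Hsp90b1, both chaperones, differed by -0.90 ± 0.06 and -0.80 ± 0.05. The element bound by Atf6, named ERSE, was found in 9 of 21 members with a promoter window and in 0.17% of tested genes. The heat shock and oxidative stress genes were mixed, with a median log2 of -0.07. Of 11 heat shock genes 3 were lower and 2 higher (1 higher without ApoE particle library 1), and of 13 targets of the oxidative stress factor NRF2 and metallothioneins 1 was higher and 5 were lower, with a lower count of 3 without reconstituted library 1 and of 2 without reconstituted library 2 or ApoE particle library 2. The higher member, Txnrd1 (log2 0.15), lost its call without control library 2 or any 1 of the 4 particle libraries.

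**Figure D3:**
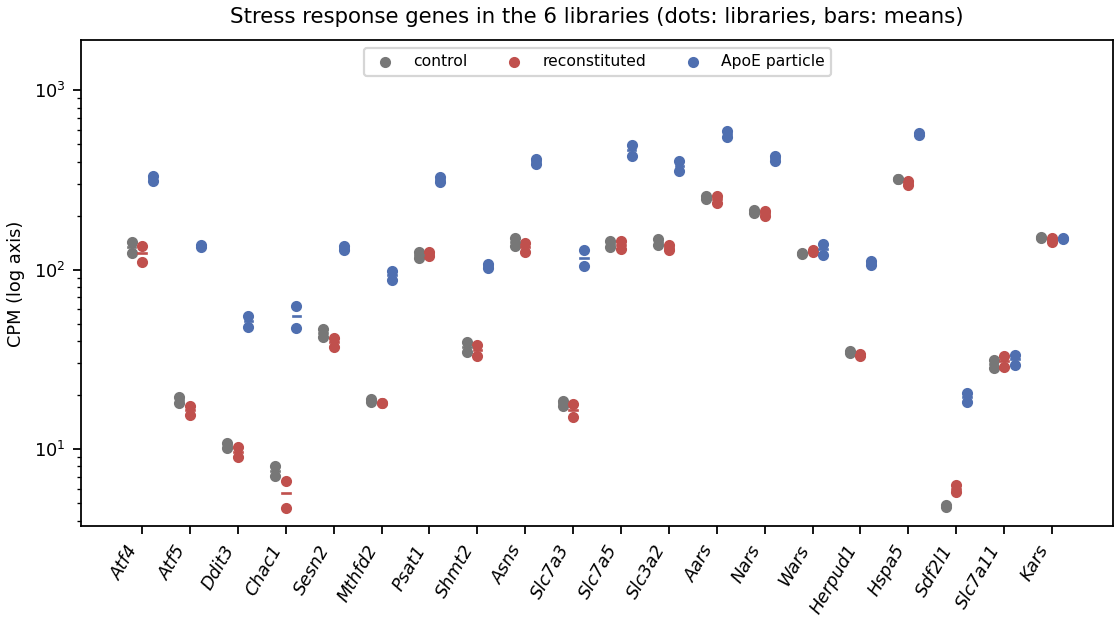
CPM on a log axis for 20 genes of the integrated stress response, the tRNA synthetases and the endoplasmic reticulum stress response in the 6 libraries, with a dot per library and a bar at each group mean. ApoE particle libraries lie above control and reconstituted libraries for most genes shown, and the groups overlap for Wars, Slc7a11 and Kars.

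Cholesterol synthesis genes were higher with the reconstituted particle in 15 of 21 cases and lower in 0, with a median log2 of 0.68. Both stretches of the pathway took part, with 8 of 11 genes up to squalene epoxide and 7 of 10 from lanosterol on. Hmgcs1, which makes HMG-CoA (chr13:119690379-119708260), was at 924 and 883 CPM with the reconstituted particle, 465 and 389.7 with the ApoE particle and 862 and 854 in the controls (log2 1.08 ± 0.07, adjusted p = 1.52e-05). Mvd and Idi1, which act on the mevalonate products, differed most, at 66.3 and 71.3 CPM against 27.8 and 27.6 (log2 1.31 ± 0.08) and at 54.9 and 48.5 against 23.1 and 20.9 (log2 1.23 ± 0.09). In each of these genes both ApoE particle libraries lay below the other 4.

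Of the later enzymes, Cyp51, Msmo1, Nsdhl and Dhcr7 differed by log2 values of 0.71, 0.76, 0.99 and 0.68. Sqle was at 261 and 271 CPM against 215 and 162 (log2 0.50 ± 0.15, adjusted p = 0.124) and Lss at 118 and 119 against 99.6 and 65.1 (log2 0.53 ± 0.24, adjusted p = 0.266); in both the spread between the 2 ApoE particle libraries was wide. Pmvk, Ggps1, Sc5d and Ebp were also not called, with log2 values of -0.03, 0.01, 0.17 and -0.19. Leaving out 1 library ended the call of Mvk without reconstituted library 2 (adjusted p = 0.196), of Acat2 without reconstituted library 1 (0.0714) or ApoE particle library 1 (0.142), and of Fdps without reconstituted library 2 (0.0855) or ApoE particle library 2 (0.174).

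The sterol response element letters TCACNCCAC were in the promoter window of 1 of 16 members, Hmgcs1, beside 1.39% of tested genes; the stretch is shown from RefSeq (GRCm38.p6) with the letters in capitals.
Hmgcs1, plus strand, chr13:119690199-119690237: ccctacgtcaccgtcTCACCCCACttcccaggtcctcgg
Of 13 genes of sterol sensing and uptake 5 were higher, a count of 3 without reconstituted library 2. Srebf2, which encodes SREBP2, was at 399.8 and 429 CPM against 290.0 and 269 (log2 0.57 ± 0.05). Stard4, a sterol carrier, was at 55.5 and 51.0 CPM against 35.4 and 26.8 (log2 0.78 ± 0.10).

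Of 5 cholesterol export genes 2 were higher with the reconstituted particle, Abca1 and Abca7, and 0 lower. Of 11 regulators and enzymes linked to the sterol-activated receptor LXR 5 were higher and 0 lower, and the 5 became 2 without reconstituted library 2, 3 without ApoE particle library 1 and 1 without ApoE particle library 2. Abca1, the main exporter to lipid-poor apolipoproteins (chr4:53030787-53159895), was at 349.5 and 334 CPM with the reconstituted particle, 132 and 153 with the ApoE particle and 333 and 329 in the controls (log2 1.26 ± 0.06, adjusted p = 2.01e-12). Srebf1, which encodes the fatty acid regulator SREBP1, was at 141 and 141 CPM against 74.6 and 90.7 (log2 0.77 ± 0.07). Apoe itself was at 595 and 660.1 CPM against 589 and 685 (log2 -0.02 ± 0.08, adjusted p = 0.888), and the libraries of the 2 particles overlapped. Astrocytes express Apoe and Abca1 as well, and astrocyte markers moved as given above.

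**Figure D4:**
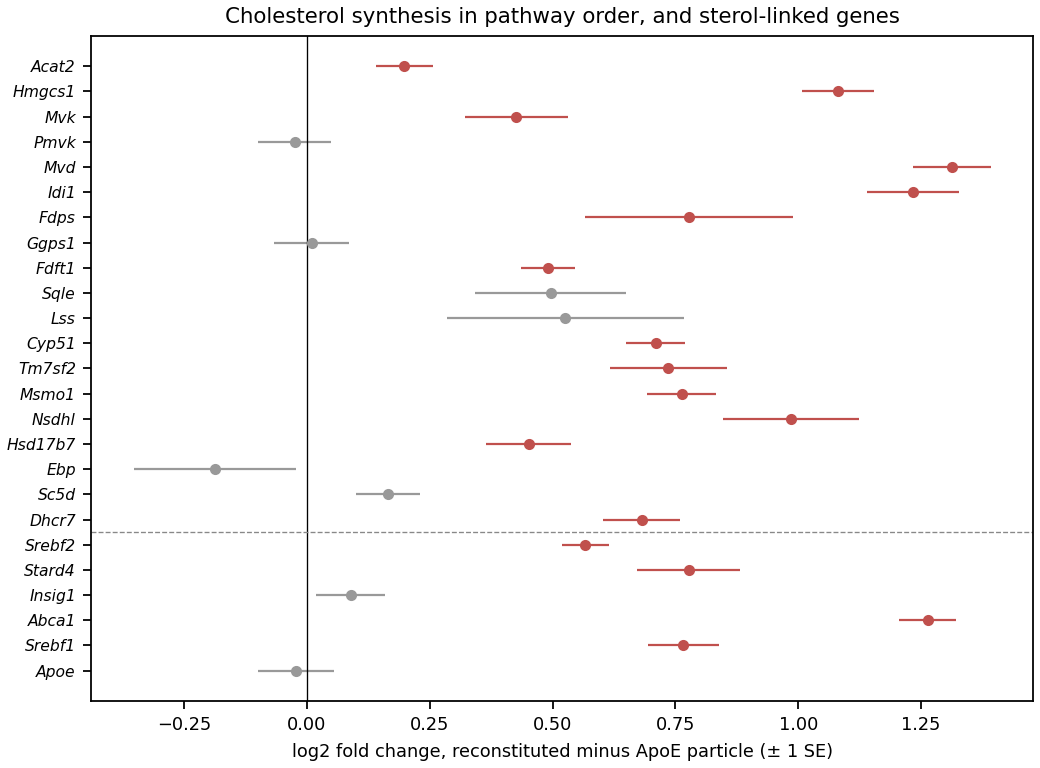
Log2 fold change, reconstituted minus ApoE particle, for cholesterol synthesis genes in pathway order above the dashed line and for sterol-linked genes below it. Bars are ± 1 SE, derived from the F statistic as given in the text. Red marks genes called higher with the reconstituted particle, grey the genes not called, among them Sqle, Lss and Apoe.

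Fatty acid genes followed in part, with 7 of 23 higher (30.4%) and 2 lower (8.70%, near the 8.88% of all genes tested). Their median log2 was 0.03. The lower gene of acetyl-CoA supply, Slc33a1 (log2 -0.38), lost its call without reconstituted library 1 or ApoE particle library 2. Scd1, a fatty acid desaturase, was at 235.5 and 240.0 CPM against 129.8 and 140.1 (log2 0.82 ± 0.06), and Fasn, fatty acid synthase, at 897 and 891 against 643 and 646 (log2 0.47 ± 0.04). Acly, which makes cytosolic acetyl-CoA, was at 379 and 406 CPM against 311 and 327 (log2 0.30 ± 0.05). Of 16 ApoE receptor genes, 9 were higher and 1 lower. Sorl1, a sorting receptor, was at 109 and 119 CPM against 65.6 and 63.8 (log2 0.82 ± 0.07), whereas Vldlr, the VLDL receptor, was lower at 157 and 145 against 209.8 and 202 (log2 -0.45 ± 0.05). Lrp1 and Lrp8, both signalling uptake receptors, differed by 0.33 ± 0.04 and 0.33 ± 0.05.

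Histone acetylation genes, which the title of the study names, showed small differences in both directions. Of 33, 5 were higher (15.2%) and 4 lower (12.1%), shares near the 11.4% and 8.88% of all genes tested, with a median log2 of 0.02. Of the 18 deacetylases 2 were higher and 3 lower, which became 1 and 1 without ApoE particle library 1; leaving out any other particle library also left 1 higher. The 1 acetyltransferase called lower, Kat6b (log2 -0.20), lost its call without reconstituted library 2 or ApoE particle library 1. Ep300, an acetyltransferase, was at 130.1 and 129 CPM against 112 and 108 (log2 0.24 ± 0.06). Hdac1, a deacetylase, was at 45.3 and 46.6 CPM against 35.1 and 35.9 (log2 0.37 ± 0.09), and Hdac8 at 5.29 and 5.74 against 9.64 and 9.64 (log2 -0.80 ± 0.19).

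Neuronal genes differed mostly by less than 2-fold. Of 39 synapse genes 19 were higher (48.7%) and 3 lower (7.69%, near the 8.88% of all genes tested), with a median log2 of 0.17. Slc17a7, which loads glutamate into vesicles, differed most, at 63.2 and 58.8 CPM with the reconstituted particle, 28.9 and 30.0 with the ApoE particle and 62.5 and 62.8 in the controls (log2 1.05 ± 0.08, adjusted p = 4.31e-10). The glutamate receptor subunits Grin2b and Gria1 differed by 0.34 ± 0.04 and 0.39 ± 0.05. Among the 3 lower synapse genes was Vamp2, a vesicle fusion protein (log2 -0.19), with 1 postsynaptic and 0 presynaptic genes lower without reconstituted library 2, and 1 postsynaptic gene without ApoE particle library 1. Of 29 ion channel genes 13 were higher and 2 lower, and the 8 higher sodium and calcium channel genes became 5 without reconstituted library 1. Kcnq3, a subunit of the M-current potassium channel, was at 155 and 144 CPM against 74.7 and 69.6 (log2 1.05 ± 0.06). Of 20 axon and cytoskeleton genes 11 were higher and 1 lower, with Nefm, a neurofilament subunit, at 137 and 125 CPM against 75.9 and 72.0 (log2 0.82 ± 0.07).

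Marker sums of the neuron classes differed by less than those of astrocytes. Excitatory markers summed to 1644 and 1640 CPM with the reconstituted particle and 1523 and 1547 with the ApoE particle, and inhibitory markers to 768 and 799 against 672 and 624. Gad1, a GABA-synthesizing enzyme, was lower with the reconstituted particle, at 166 and 159 CPM against 197 and 192 (log2 -0.26 ± 0.05), and Gad2, its paralog, was higher with the reconstituted particle than the 57.8 and 60.2 CPM with the ApoE particle (log2 0.35 ± 0.07, adjusted p = 0.000557).

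Activity-induced genes lay lower with the reconstituted particle in 15 of 37 cases and higher in 2, with a median log2 of -0.45. Fosb, an immediate early transcription factor, was at 2.46 and 1.44 CPM against 14.7 and 10.9 (log2 -2.71 ± 0.28), and Npas4, an activity-dependent factor, at 12.4 and 13.8 against 32.9 and 24.6 (log2 -1.13 ± 0.17). Jun and Egr3 went the other way, with Jun at 134 and 121 CPM against 74.3 and 72.7 (log2 0.79 ± 0.06). The count of lower immediate early factors was 7 of 17, and 4 without reconstituted library 2. Of 14 neuropeptide precursors 2 were higher (14.3%) and 3 lower (21.4%), beside 11.4% and 8.88% of all genes tested. Fewer precursors were lower without reconstituted library 2. Crh, the corticotropin-releasing hormone, was at 0.430 and 0.120 CPM against 3.902 and 3.23 (log2 -3.67 ± 0.50), and Adcyap1, which encodes the peptide PACAP, at 4.06 and 3.05 against 8.22 and 6.35 (log2 -1.03 ± 0.24), a call lost without reconstituted library 2. Npy, neuropeptide Y, was at 34.8 and 32.4 CPM against 17.0 and 17.5 (log2 0.96 ± 0.10).

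Ribosomal protein genes were lower in 18 of 20 cases and higher in 0, by small amounts, with a median log2 of -0.26. Rplp0 was at 688 and 749 CPM against 930 and 893 (log2 -0.34 ± 0.04). Ribosomal protein genes have many processed pseudogenes, so their counts depend on how shared reads were treated. Of the remaining lists, beside 11.4% higher and 8.88% lower over all genes, 8 of 25 glycolysis and hypoxia genes were higher (32%) and 3 lower (12%), 3 of 20 lysosome and autophagy genes higher (1 without ApoE particle library 1) and 1 lower, and 1 of 12 mitochondrially encoded genes higher and 3 lower. The lower mitochondrial count was 1 without reconstituted library 2 and 6 without ApoE particle library 1, and the higher one 0 without reconstituted library 1 or ApoE particle library 1.

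**Figure D5:**
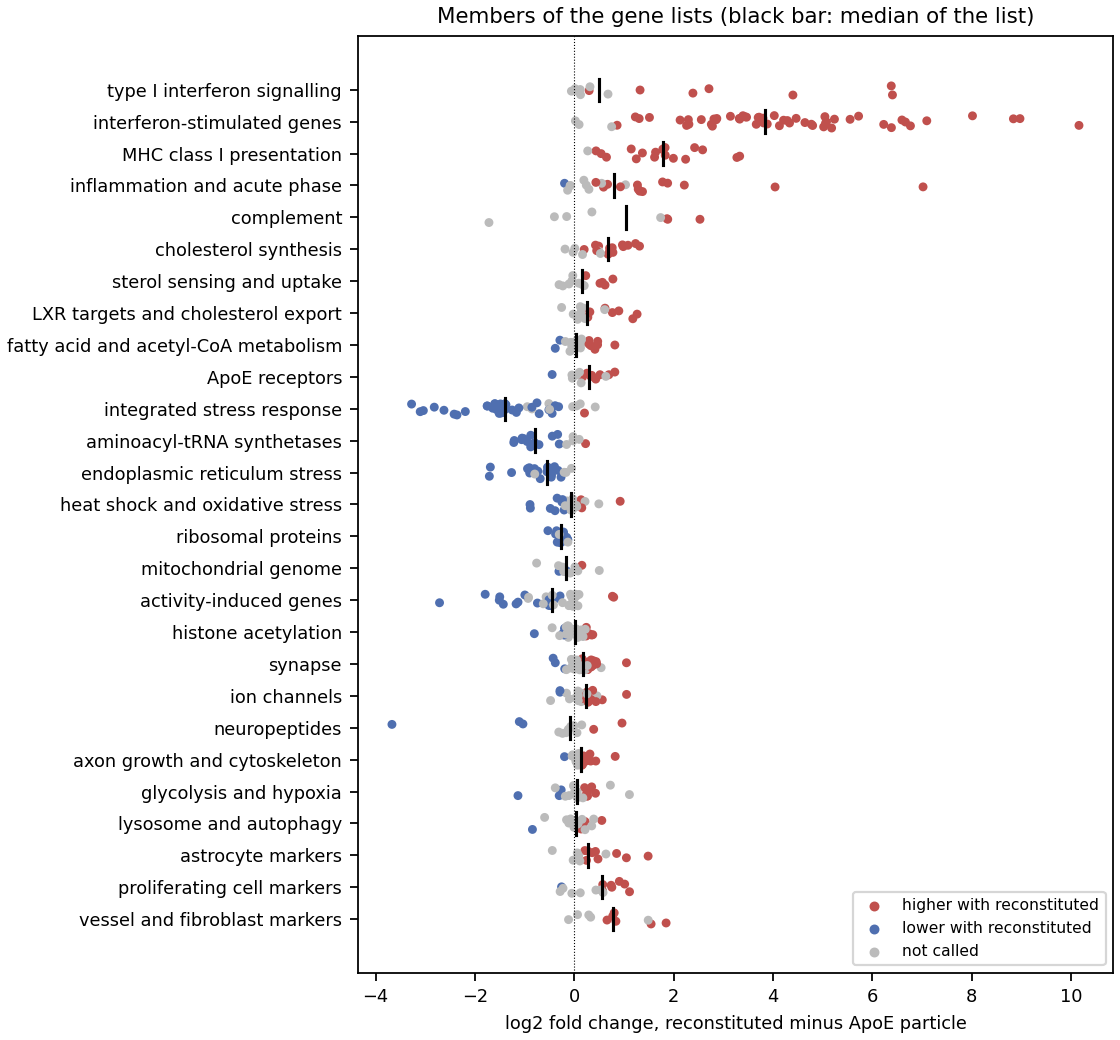
Log2 fold change, reconstituted minus ApoE particle, of each tested member of 27 gene lists, with red and blue for genes called higher and lower, grey for genes not called and a black bar at the median of the list. The interferon-stimulated genes lie farthest to the right with a median of 3.85 as fitted, and the integrated stress response genes farthest to the left with a median of -1.39.

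Genes outside the lists were among the largest differences. The lists do not hold every gene of a program, so a place outside them does not set these genes apart from the programs above. Rnf213, a large ubiquitin ligase (chr11:119393100-119487418), was at 360.8 and 358.5 CPM with the reconstituted particle, 11.5 and 14.3 with the ApoE particle and 375 and 369 in the controls (log2 4.79 ± 0.07, adjusted p = 2.83e-23). Lgals9, a galectin, was at 6.15 and 4.78 CPM against 0.118 and 0.167 (log2 5.18 ± 0.42), with 5 counts over the ApoE particle libraries. Among genes with at least 5 CPM in the higher group, predicted genes left out, the deepest fall was in Cox6a2. This muscle-type subunit of cytochrome c oxidase (chr7:128205435-128206387) was at 0.492 and 0.359 CPM against 8.63 and 6.18 (log2 -4.10 ± 0.37). Eif4ebp1, an inhibitor of translation initiation, was at 10.1 and 9.39 CPM against 45.5 and 36.3 (log2 -2.07 ± 0.13), and Stc2, a secreted glycoprotein, at 14.3 and 11.4 against 72.8 and 55.0 (log2 -2.31 ± 0.15). P2rx3, an ATP-gated channel, and Cd36, a fatty acid and lipoprotein receptor, differed by -3.15 ± 0.34 and -2.28 ± 0.35.

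Called genes were not spread evenly over transcript length. Among the 3275 genes with the shortest transcripts (up to 1748 bases) 3.76% were higher with the reconstituted particle and 10.2% lower, and among the 3273 with the longest (5151 bases or more) 24.2% were higher and 6.2% lower. The median transcript length was 4605 bases for genes called higher, 2959 for genes called lower and 3090 for genes not called. Calls also rose with expression, since the share of genes called higher went from 3.54% of the 3278 genes with the lowest mean CPM to 21.8% of the 3278 with the highest. RNA quality was not given in the sources used here, and the part of transcript length in the small differences above was not tested.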

How the data were processed

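The members, gene lists and tests were chosen with earlier results of these data known. Total RNA of 2 μg per library was sequenced, per the labels. The authors deposited unnormalized counts for each gene. Genome build mm10 and the tools HTSeq 0.6.0, HISAT2 2.1.0 and Bowtie2 2.2.3 come from the submitters' processing notes; for their roles, strand setting and annotation, the answer is not given in the sources used here. Gene symbols stored as dates (25) were restored from identifiers. edgeR 4.0.16 in R 4.3.3 fitted the 6 libraries as 3 groups (filterByExpr, TMM, robust quasi-likelihood F test, Benjamini-Hochberg over all 16388 genes), and was tested on simulated data. Named genes are the 15 largest rises and 15 largest falls with at least 5 CPM, the 10 lowest p-values, up to 4 called members per list role, and fixed sterol genes and cell markers; others are said to be chosen after their values were seen, as were some genes in the plots. Some genes that the rule picks are not reported here. The labels do not say whether a replicate number marks a shared culture or day. Differences between replicates 1 and 2 hardly correlated between groups (-0.075 to 0.042), which cannot exclude such pairing. Alternatives were DESeq2 1.42.0, limma 3.58.1, other scalings and filters, a replicate block, and leaving out each library. Promoter windows were found for 11473 tested genes.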

Additional observations from a re-analysis of the deposited data

Results flagged for a closer look

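The 1489 genes without values in the control and ApoE particle columns held counts in the reconstituted columns, 38233 in library 1 and 38053 in library 2. These were 0.232% and 0.226% of all counts of the library, dropped genes included. These counts drew attention because they lie outside the comparison and are above 0. Most of these counts belong to genes whose symbols were stored as dates, with Sept3 at 13427 and 13465 counts; 667 of the genes had 0 counts in both reconstituted libraries, and 11 had 100 or more over both. No fold against the ApoE particle can be formed for them.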

How the results depend on the processing

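Leaving out each library in turn gave 1311 to 1843 higher genes and 930 to 1517 lower genes, beside 1864 and 1455; the lower count was 949 without reconstituted library 2 and 930 without ApoE particle library 1. At 2-fold or more the ranges were 268 to 357 higher and 112 to 179 lower. DESeq2 called 1358 higher and 992 lower. Scaling by library totals alone moved the share of calls that were higher from 56.2% to 50.8%. The reconstituted particle against control gave 0 calls, 8 with no filter beyond 1 count, 14 with missing values set to 0, and 1 to 4 when a library was left out. Missing values set to 0 put genes such as Sept3 at 0 in the control libraries by construction, so calls of such genes are no measured difference. With the replicate number as a block, 1667 genes were higher, 1307 lower and 1 was called against control. Whether the replicate numbers pair libraries is not known. For the named genes, 2956 results kept their side of the threshold, 78 lost the call and 9 gained it. In 0 results did the direction reverse with a call in either fit. Genes called in neither fit could change sign and still count as kept, such as Apoe (log2 -0.128 to 0.0916). Among the 3278 genes with the lowest mean CPM, 3.54% were called higher and 1.59% lower; the differences that 2 libraries per group can miss there were not tested.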
